A study of Mus musculus with 18 samples.

Results

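RNA sequencing of LSK from prediseased NZBW/F1 mice (F1-P) was compared with that of LSK from young C57BL/6 mice (B6-Y), 2 groups of the same age and sex that differ in strain. The 6 samples, 3 per group, were taken by their labels from the 18 samples of the series, which profiled LSK and common myeloid progenitors in a mouse model of systemic lupus erythematosus. F1-P mice were female offspring of NZB/OlaHsd crossed with NZW/OlaHsd, aged 12 weeks and without overt disease. B6-Y mice were female C57BL/6 of 12 weeks from another supplier, so that strain and supplier cannot be told apart. Neither group carried a transgene or received an agent. Only for a comparison in separate mice were LSK of 28 to 36 weeks used, 3 samples of NZBW/F1 mice with lupus (F1-L) and 3 of older C57BL/6 mice (B6-O). Whether a sample was 1 mouse or a pool was not given in the sources used here, so the p-values measure the spread between these samples.

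LSK are the bone marrow cells that lack lineage antigens and carry Sca-1 and c-Kit, a gate that holds haematopoietic stem cells and multipotent progenitors. The sort used antibodies to CD11b, Gr-1, Ter119, B220 and CD16/32 as the lineage panel. NZBW/F1 females develop autoantibodies and immune complex nephritis as they age, and the NZB and NZW genomes differ from the C57BL/6 genome at many immune loci. Among these are the interferon-inducible Ifi200 cluster, the natural killer receptor cluster and the major histocompatibility complex (MHC).

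The 6 libraries held between 23772252 and 27288453 reads in genes. Values below are scaled CPM, read counts divided by the scaled depth of the library, and each fold change is the difference of the group means of log2(CPM + 1), F1-P minus B6-Y. A gene was called when its limma adjusted p was at most 0.05 and its fold change above 1.5. Of 14380 genes with at least 1 CPM in at least 3 of the 6 samples, 2331 were called, which is 16.2%, and these included 1442 genes higher and 889 lower in F1-P. Of the genes tested, 391 had no B6-Y sample at 1 CPM and 169 no F1-P sample, so that they passed the filter through the other group and had to differ. Of the 391, 361 were called higher, and of the 169, 110 were called lower. The median log2 fold change of all genes tested was -0.04. Without regard to the test, all samples of one group lay above all samples of the other for 5103 genes (35.5%), and among the 2331 called genes for 2328. In a principal component analysis without immunoglobulin genes the first component, with 54.1% of the variance, placed every NZBW/F1 library (29.2 to 56.7) apart from every C57BL/6 library (-50.8 to -23.9).

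Single libraries stood apart from the rest of their group. B6-Y replicate 2 had a summed level of 5776 CPM over the late neutrophil markers, against 596 and 594 CPM in the other B6-Y samples, 959 CPM over the monocyte markers, against 406 and 477 CPM, and 268 CPM over the basophil, mast cell and eosinophil markers, against 40.4 and 92.6 CPM. F1-P replicate 3 had 3675 CPM over the erythroid markers, with Hbb-bs at 1454 and Hba-a1 at 818 CPM, against 698 and 526 CPM. It also had 2987 CPM over the primary granule markers, against 1431 and 1494 CPM, and 1369 CPM over the late neutrophil markers, against 344 and 582 CPM. F1-P replicate 1 gave 19.2% of its reads to immunoglobulin genes, against 36.6% and 35.1% in the other F1-P samples. Without B6-Y replicate 2 the number of called genes was 2151, without F1-P replicate 3 it was 1568, with 565 instead of 889 lower genes, and without F1-P replicate 1 it was 2704. It was 1346 (945 higher, 401 lower) without F1-P replicate 2 and 1398 (952 higher, 446 lower) without B6-Y replicate 1. Of the 2331 called genes 1246 kept the call without any 1 sample. Among the genes named below as called, Atp6v0c, Cd5l, Cd79b, Flt3, Ifi204, Spib and Tnfrsf1a lost it for 5 of the 6 samples left out. Cebpa, Fosb, H2-Eb1, Il5ra, Lmo2, Pkm, Rps18 and Tyk2 lost it for 4, and Fos, Gata2, Hspa5 and Zbp1 for 3. Ccr9, Cd3e, Iigp1, Irf9, Jun and Rpl35a lost it for 2, and Hba-a2, Hsd17b7, Ifi213, Il6st, Trim30b and Usp18 for 1.

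Antibody genes were far higher in F1-P. Immunoglobulin genes took 0.918%, 2.86% and 2.85% of the reads of the B6-Y samples, and 19.2%, 36.6% and 35.1% of those of the F1-P samples. The groups did not overlap, and the means were 2.21 ± 1.12% and 30.3 ± 9.60% (SD, n = 3). With 3 samples per group the smallest p of a two-sided exact permutation test is 0.1. Of 237 immunoglobulin genes tested, 185 were higher and 5 lower in F1-P, and of the 198 with a sample at 1 CPM in each group 149 were higher and 2 lower. Outside immunoglobulin genes 2141 of 14143 genes were called (15.1%), 1257 higher (8.89%) and 884 lower (6.25%), and the counts of gene lists below are to be read beside these shares.

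The genes of antibody-secreting cells rose with them. Of 18 plasma cell markers tested, 17 were higher and none lower, with a median log2 fold change of 2.96 beside -0.04 for all genes, and the count was 15 to 18 when each sample was left out in turn. Their summed level was 1250, 2709 and 2546 CPM in B6-Y and 16991, 44149 and 39316 CPM in F1-P, with Jchain the most abundant, and no marker was at 0 in all samples of a group. In bulk samples, more cells of a type and more RNA per cell cannot be told apart. Jchain, which joins the units of IgM and IgA, stood at 525, 1501 and 1489 CPM in B6-Y and at 12939, 33325 and 30254 CPM in F1-P. Every F1-P sample was above every B6-Y sample, and the log2 fold change was 4.48 (SE 0.61, adjusted p = 0.00242). Xbp1, the transcription factor of the secretory programme, was at 107, 227 and 179 CPM in B6-Y and 835, 2287 and 1983 CPM in F1-P, again without overlap (log2 fold change 3.25). Prdm1, which encodes Blimp-1, rose by 3.57, Tnfrsf17, the receptor BCMA, by 3.56, Irf4 by 2.72 and Sdc1, which encodes CD138, by 2.21. Cd28 was the 1 member not called (20.4, 38.7 and 18.6 CPM against 39.9, 50.1 and 38.1 CPM).

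Genes of protein folding and export in the endoplasmic reticulum were higher as a group. Of 20 tested, 16 were higher and none lower (median 1.46, 13 to 17 without a sample). Sel1l, part of the machinery that removes misfolded proteins, was at 96.3, 149 and 120 CPM in B6-Y and 701, 1929 and 1726 CPM in F1-P. The groups did not overlap (log2 fold change 3.46, SE 0.38, adjusted p = 0.000869). The chaperones Hsp90b1 and Hspa5 rose by 2.08 and 1.25. Atf4 and Ddit3, transcription factors of the stress response that stalls translation, were not called, at log2 fold changes of 0.12 and 0.39.

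Markers of early B lineage cells did not move as the plasma cell markers did. Of 19 tested, 2 were higher, Cd79a (1.21) and Cd79b (0.97), and none was lower, with a median of -0.22. Pax5, the factor that fixes B cell identity, ranged from 19.5 to 100 CPM in B6-Y and from 16.1 to 89.2 CPM in F1-P, and the groups overlapped. The summed level of the list ranged from 1470 to 1921 CPM in B6-Y and from 905 to 2516 CPM in F1-P, with Dntt the most abundant.

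Genes of natural killer (NK) and T cells formed the other group of lineage genes that rose. Of 25 markers, 17 were higher and none lower (median 1.46, 12 to 18 without a sample), and their summed level was 214, 375 and 322 CPM in B6-Y and 904, 1022 and 836 CPM in F1-P, with Il2rb the most abundant. Ncr1, the NK receptor NKp46, was at 3.41, 4.86 and 3.06 CPM in B6-Y and at 55.5, 84.9 and 77.0 CPM in F1-P. The lowest F1-P sample exceeded the highest B6-Y sample (log2 fold change 3.94, SE 0.22, adjusted p = 3.4e-05). Gzma, a granzyme, rose by 3.37, Eomes and Tbx21, transcription factors of NK cells and cytotoxic T cells, by 2.95 and 2.54, and Prf1, which encodes perforin, by 2.16. Cd3g, part of the CD3 complex of T cells, was at 1.24, 4.83 and 3.72 CPM in B6-Y and 18.4, 25.03 and 19.5 CPM in F1-P. It too did not overlap between the groups and rose by 2.47. Cd3e rose by 1.96, while Cd4, Cd8a and Cd5 were not called, at 0.33, 0.75 and 0.19.

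Klra genes encode the Ly49 receptors of NK cells. Of the 14 measured, 10 were tested, and these 10 were called higher, but 7 of them had no B6-Y sample at 1 CPM and passed the filter through F1-P alone, so that they had to be higher. The other 3 were higher as well, Klra7 by 3.09, Klra13-ps by 2.81 and Klra17 by 2.49. Klra1, 1 of the 7, was at 0.496, 0.473 and 0.482 CPM in B6-Y. In F1-P it was at 17.6, 28.8 and 28.5 CPM, a log2 fold change of 4.10. Among 15 other killer lectin-like receptor and Clec2 genes 13 were higher and none lower, including Klre1 at 3.72, and of the 12 with a B6-Y sample at 1 CPM 10 were higher. Of 53 T cell receptor segments and constant genes measured, 19 were tested and 15 were higher. Of these 19, 6 passed through F1-P alone (5 higher), and of the other 13, 10 were higher. Klra genes are near copies of each other, so the split of reads among them is uncertain. With all immunoglobulin and T cell receptor genes and the plasma cell, endoplasmic reticulum, T and NK cell lists left out of the count, 2078 genes were still called, but the part of plasma, NK and T cells in the results below was not tested.

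The gene of Sca-1, the antigen used to sort these cells, had the largest log2 fold change of the 11 tested genes of the sort gate list. Of these 11, 3 were higher and 1 lower, and 1 of the 3 had passed the filter through F1-P alone. The lower gene was Cd34, whose antigen was used in the sort of common myeloid progenitors and not in that of LSK. Ly6a was at 37.0, 51.8 and 89.3 CPM in B6-Y and at 362, 876 and 879 CPM in F1-P. No F1-P sample came near the B6-Y range, and the log2 fold change was 3.53 (SE 0.41, adjusted p = 0.00121). Kit, the other positive marker, was at 481, 410 and 449 CPM in B6-Y and 257, 280 and 373 CPM in F1-P, without overlap but not called (log2 fold change -0.57, SE 0.18, adjusted p = 0.063). Ly6a lies on chromosome 15 at 74994877 to 74998031 (GRCm38) in a cluster of related genes for small anchored surface proteins, and of 8 members tested 6 were higher and none lower. Of the 6 members with a B6-Y sample at 1 CPM 4 were higher.

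Ly6c2, one of the genes of the Ly6C antigen of monocytes and lymphocytes, was at 36.2, 93.1 and 64.2 CPM in B6-Y and 330, 605 and 663 CPM in F1-P. It rose by 3.06, Ly6c1 by 3.17 and Ly6k by 3.68, and none of these overlapped between the groups. Ly6e (0.23) and Ly6g (0.01) were not called. Of the genes behind the negative antibodies, Itgam, which encodes CD11b, was at 17.5, 42.6 and 14.4 CPM in B6-Y and 5.52, 7.24 and 13.8 CPM in F1-P (log2 fold change -1.32, adjusted p = 0.0779), and Fcgr3 (0.18) and Ptprc (0.50) were not called. These are not all of the genes of the sort gate list, and its 3 higher genes include others than Ly6a.

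**Figure D1:**
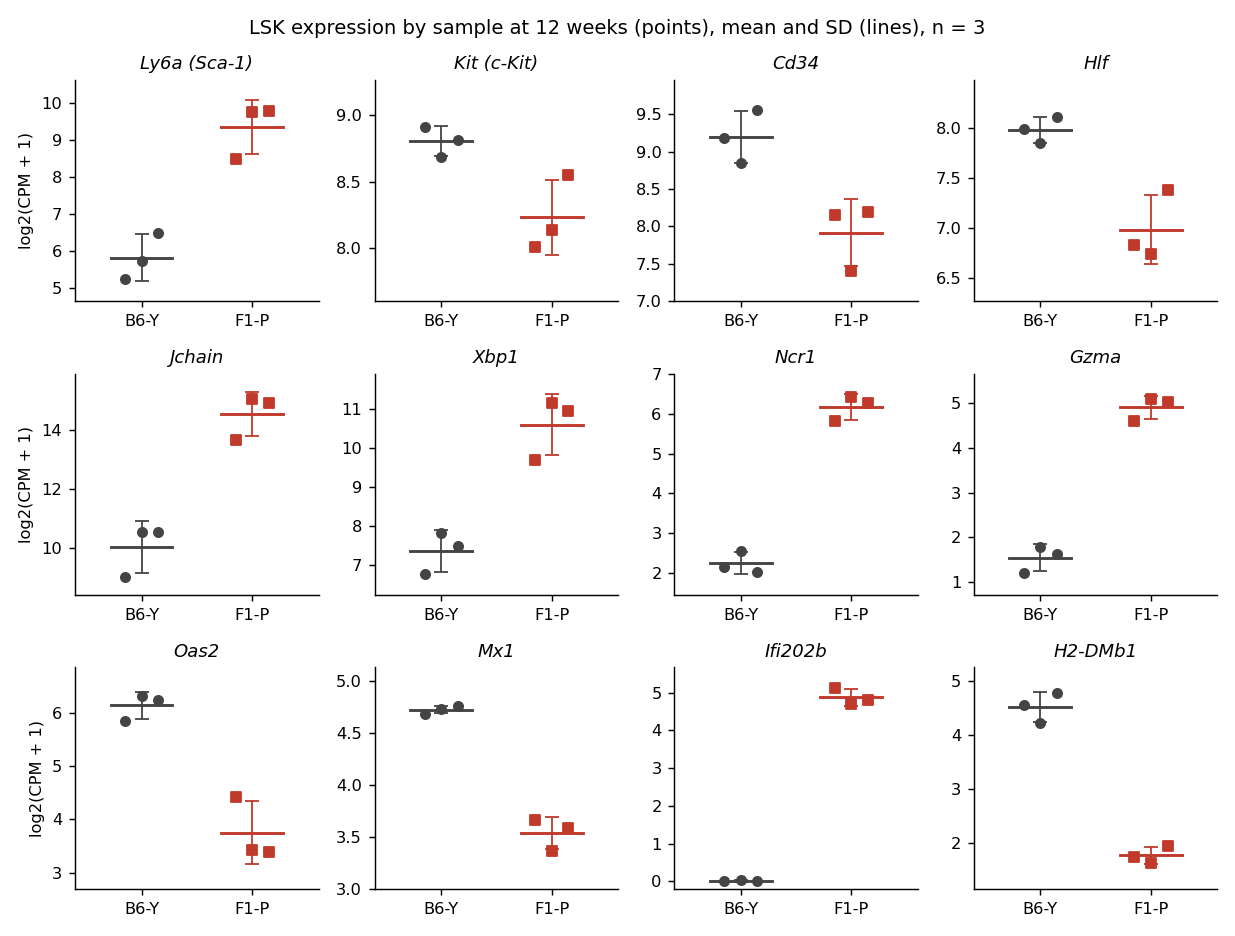
Level of 12 genes in each LSK sample on the log2(CPM + 1) axis, which does not start at 0 in most panels; circles are B6-Y and squares F1-P samples, with the mean as a horizontal line and the SD as a bar (n = 3). The 3 F1-P samples lie above all B6-Y samples for Ly6a, Jchain, Xbp1, Ncr1, Gzma and Ifi202b, and below them for Kit, Cd34, Hlf, Oas2, Mx1 and H2-DMb1.

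Genes that mark stem and multipotent cells were lower on balance. Of 24 tested, 7 were lower and only Ly6a was higher, with a median log2 fold change of -0.51 and 4 to 9 lower without a sample. Their summed level was 4001, 3575 and 4582 CPM in B6-Y and 2928, 2800 and 3424 CPM in F1-P, so that the groups did not overlap. Cd34, the sialomucin of progenitors, was at 580, 462 and 751 CPM in B6-Y and at 284, 169 and 291 CPM in F1-P. It fell by 1.28 on the log2 scale (SE 0.26, adjusted p = 0.0143), with every F1-P sample under every B6-Y sample. Hlf, a transcription factor of stem cells, was at 253, 229 and 274 CPM in B6-Y and 113, 106 and 165 CPM in F1-P, and fell by 1.00. Meis1, a homeobox factor of the same cells, was at 183, 161 and 205 CPM against 87.2, 70.5 and 93.4 CPM and fell by 1.12.

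Gata2 fell by 0.99, Lmo2 by 0.82 and Eng, the TGF-beta coreceptor endoglin, by 0.80. Flt3, the receptor that marks multipotent progenitors, was at 715, 732 and 779 CPM in B6-Y and at 599, 298 and 337 CPM in F1-P. Its fall of 0.92 was just past the threshold (adjusted p = 0.0492) and was lost under 11 of 22 alternative settings. Procr (-0.21), Slamf1 (-0.46) and Mecom (-0.49) were not called. With scaling without immunoglobulin genes 6 instead of 7 stem and progenitor genes were lower, with Cd34 called (-1.24) and Flt3 not (-0.88). That scaling keeps the reads of other plasma, NK and T cell genes in the total, whose part was not tested.

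Myeloid and megakaryocyte genes were lower in part. Of 12 megakaryocyte markers 4 were lower and none higher (median -0.61, 2 to 4 without a sample). Only 2 were lower with scaling without immunoglobulin genes, and 2 with reads outside those genes thinned to equal numbers. Of 16 monocyte markers 2 were lower (median -0.70). The summed level of the monocyte markers was 406, 959 and 477 CPM in B6-Y and 222, 274 and 430 CPM in F1-P, so that the groups overlapped and B6-Y replicate 2 was highest. Itga2b, the integrin CD41, was at 95.6, 67.3 and 99.5 CPM in B6-Y and at 14.3, 15.8 and 22.4 CPM in F1-P. The groups were far apart (log2 fold change -2.26, SE 0.22, adjusted p = 0.000458), and Selp, P-selectin, fell by 2.16. Apoe, the lipid carrier, was at 82.5, 73.0 and 131 CPM in B6-Y and 14.6, 15.6 and 17.1 CPM in F1-P, a fall of 2.48.

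Receptors for myeloid cytokines were among the lower genes. Il1r1, the signalling receptor of interleukin-1, was at 95.7, 96.6 and 80.7 CPM in B6-Y and at 23.99, 17.4 and 27.5 CPM in F1-P. No samples overlapped, and the fall of 1.96 (SE 0.18, adjusted p = 0.000419) came with falls in Csf2rb2 (1.29), Csf3r, the receptor of G-CSF (1.10), and Tnfrsf1a (0.62). Of the 18 cytokine receptors tested 4 were lower and 2 higher, Il6st (0.80) and Il5ra. Il5ra was at 2.29, 8.41 and 3.47 CPM in B6-Y and 8.04, 43.5 and 27.4 CPM in F1-P (2.12, adjusted p = 0.0484). Its groups overlapped, and the call was lost under 6 of 22 alternative settings. Cebpa, the transcription factor of granulocyte and monocyte fate, fell by 0.99. This call was lost without F1-P replicate 1, F1-P replicate 2, B6-Y replicate 1 or B6-Y replicate 3 (adjusted p up to 0.109). Of 12 primary granule markers Cebpa was the 1 called, with 8 below 0 and 4 above (median -0.55). Late neutrophil markers had a median of -0.86, but only Padi4 of 15 was called, and their level in B6-Y rested on replicate 2. Erythroid markers (median 0.31) had 1 call of 16, Hba-a2, which passed the filter through B6-Y alone, is a near copy of Hba-a1 and is uncertain.

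Markers of plasmacytoid dendritic cells, the type I interferon source in blood and marrow, were lower in 6 of 11 and higher in 2, with a median of -0.82 and 4 to 5 lower without a sample. Cd300c, 1 of the 6, had no F1-P sample at 1 CPM and passed the filter through B6-Y alone, so that 5 of the other 10 were lower. Siglech was at 53.1, 60.8 and 49.3 CPM in B6-Y and at 18.01, 19.1 and 18.9 CPM in F1-P. The F1-P samples lay close together and well under the B6-Y samples (log2 fold change -1.49, SE 0.14, adjusted p = 0.000349). Irf8, the factor of dendritic cell and monocyte fate, fell by 0.82, Cd300c by 2.47 and Spib by 1.03. Ccr9 and Ly6d rose by 1.35 and 1.04.

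**Figure D2:**
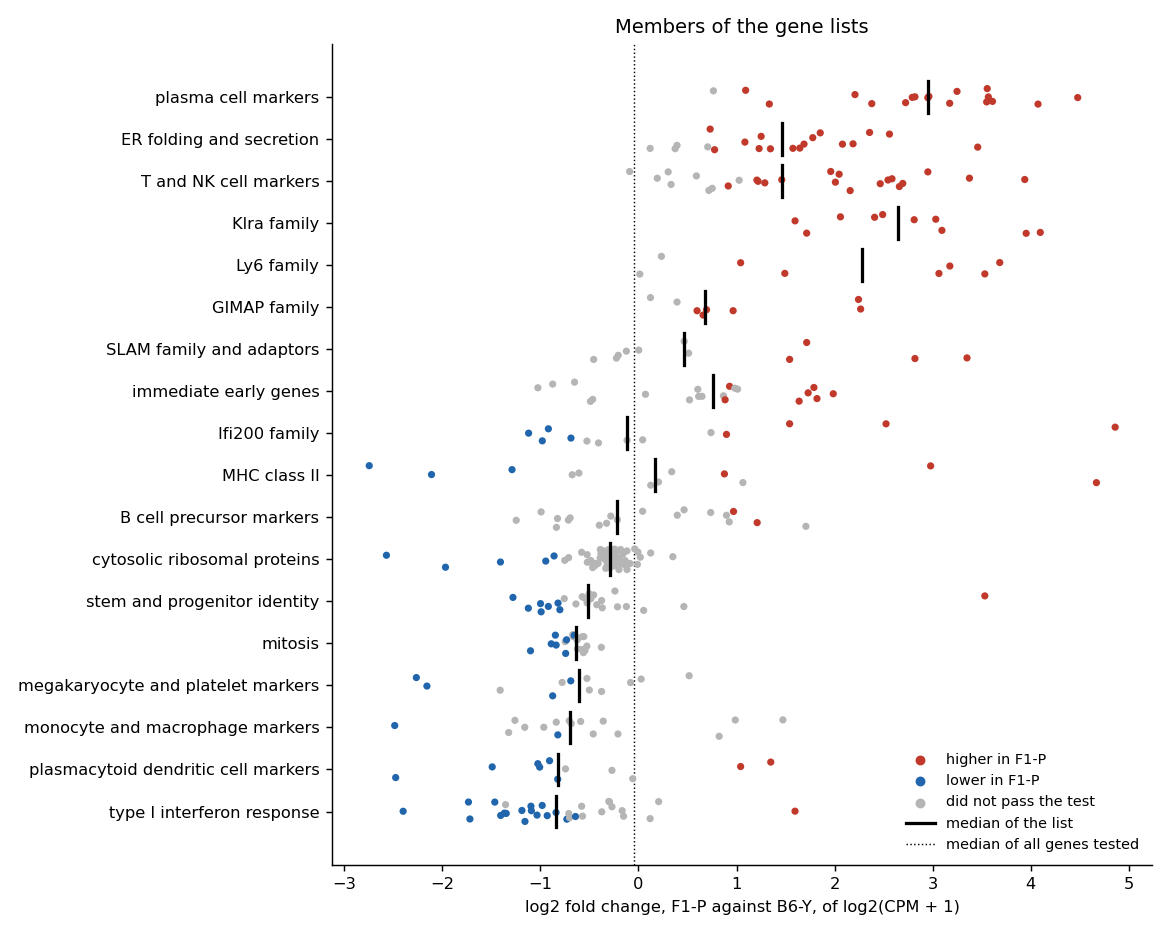
Log2 fold change, F1-P against B6-Y, of each tested member of 18 gene lists; each point is a gene, coloured by its call, the thick bar is the median of the list and the dotted line the median of all genes tested. Of the 18 lists shown, plasma cell markers (median 2.96) and the Klra family (2.65) lie farthest to the right. But 7 of the 10 Klra genes passed the filter through F1-P alone and had to be higher. Of the 18 lists, the type I interferon list (-0.84) and plasmacytoid dendritic cell markers (-0.82) lie farthest to the left.

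Type I interferon induces a set of antiviral genes through the receptor chains Ifnar1 and Ifnar2, the kinases Jak1 and Tyk2 and a complex that holds Stat2 and Irf9 and binds an element of repeated GAAA near the gene start. To show that element, the stretch around it is given for 4 genes that were lower in F1-P, from RefSeq promoter windows on GRCm38.p6 that run from 250 bases before to 50 bases after the start. Capitals mark every match to GAAA, any 2 bases and GAAA, on either strand, with 2 overlapping matches in Oas1a, and the sequences read 5′ to 3′ on the strand of the gene. They lie at chr5:120777695-120777764 (minus strand) for Oas3, chr5:120907526-120907575 (minus) for Oas1a, chr19:34640755-34640843 (plus) for Ifit1 and chr19:34583343-34583446 (plus) for Ifit3.
Oas3: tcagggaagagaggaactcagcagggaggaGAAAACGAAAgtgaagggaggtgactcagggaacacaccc
Oas1a: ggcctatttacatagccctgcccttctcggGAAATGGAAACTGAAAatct
Ifit1: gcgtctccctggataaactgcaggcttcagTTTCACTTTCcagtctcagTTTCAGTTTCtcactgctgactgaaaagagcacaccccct
Ifit3: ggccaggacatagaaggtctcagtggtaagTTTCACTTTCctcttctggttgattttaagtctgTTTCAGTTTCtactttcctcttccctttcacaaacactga

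Of 31 genes of the type I interferon list tested, 17 were lower in F1-P and only Zbp1 was higher, with a median log2 fold change of -0.84, and 14 to 18 were lower when a sample was left out. The summed level of the list was 1471, 1555 and 1722 CPM in B6-Y and 994, 1143 and 1192 CPM in F1-P, without overlap. Oas2, an enzyme that makes the activator of RNase L, was at 57.1, 79.4 and 75.2 CPM in B6-Y and at 20.6, 9.74 and 9.47 CPM in F1-P. It fell by 2.40 on the log2 scale (SE 0.29, adjusted p = 0.0014), and the lowest B6-Y sample exceeded the highest F1-P sample. Oas3, of the same family, was at 46.7, 51.8 and 55.0 CPM in B6-Y and 16.8, 12.8 and 15.2 CPM in F1-P (fall of 1.72, SE 0.15, adjusted p = 0.000322). Mx1, which encodes a GTPase, was at 24.8, 25.7 and 26.1 CPM in B6-Y and 11.7, 9.34 and 11.0 CPM in F1-P. Both groups were tight, and Mx1 fell by 1.19.

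The other lower genes of the list included Oasl2 (-1.73), Oasl1 (-1.46), Rtp4 (-1.40), Oas1a (-1.37), Ifi44 (-1.35), Ifit1 (-1.16), Ifit3 (-1.10) and Usp18, the negative regulator of the receptor (-1.09). The RNA sensors Ifih1 and Dhx58 fell by 0.98 and 1.03, and Ddx58, which encodes RIG-I, was not called at 0.21. In the signalling chain Irf9 fell by 0.64 and Tyk2 rose by 0.86, while Stat2 (-0.15), Ifnar1 (0.36), Ifnar2 (-0.09) and Jak1 (0.13) were not called. Isg15 (-0.30) and Bst2 (-0.27) were not called either. Zbp1, a sensor of left-handed nucleic acid, was at 11.7, 18.1 and 18.8 CPM in B6-Y and 27.8, 71.4 and 62.5 CPM in F1-P, and its rise of 1.6 lost its call without F1-P replicate 2, F1-P replicate 3 or B6-Y replicate 1.

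This motif was found in the promoter window of 6 of the 12 lower genes that had one (50%), and in 6 of 9 of the list's other tested genes (66.7%). It was present in 396 of the 10391 tested genes with a window (3.81%) and in 3.44% of all 32851 promoter windows. A match is a description of these letters in this window.

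The Ifi200 family, DNA sensors in 1 cluster on chromosome 1, split in direction, with 4 of 13 genes higher and 4 lower, or 3 and 4 of 12 without Ifi202b, which passed the filter through F1-P alone. Ifi202b, a candidate lupus susceptibility gene, was at 0, 0.0338 and 0 CPM in B6-Y, which is 1 read in all, and at 33.7, 25.03 and 27.01 CPM in F1-P. Ifi211 rose by 2.52, Ifi214 by 1.54 and Ifi204 by 0.90. Ifi213 fell by 1.12, Mndal by 0.98, Ifi206 by 0.92 and Ifi203 by 0.69, and Aim2, the sensor of the inflammasome, was not called (-0.12). Mndal was at 168, 202 and 185 CPM in B6-Y and 81.7, 108 and 91.1 CPM in F1-P, without overlap. Family members are similar in sequence, so their shares of the reads are uncertain.

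Among 16 guanylate-binding proteins and immunity-related GTPases, which act on intracellular microbes, 3 were lower and none higher (median -0.19). Tgtp2 was at 18.4, 16 and 29.2 CPM in B6-Y and 1.65, 2.28 and 3.01 CPM in F1-P, a fall of 2.72, and Gbp6 fell by 1.53 and Iigp1 by 1.02. Gbp2, Gbp5 and Irgm1 were not called (-0.35, -0.05 and -0.40). Of 8 Schlafen genes 1 was lower, and of 20 genes of the Toll-like receptor pathway 2 were higher and 2 lower.

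The MHC differed gene by gene. H2-Ea-ps, the Ea chain of the class II molecule I-E, which C57BL/6 mice do not make, was at 0 CPM in all B6-Y samples and at 24.8, 22.7 and 25.9 CPM in F1-P. With 1524 reads against 0, and a floor of 3 reads over the group, it was at least 745-fold higher. It lies on chromosome 17 at 34341959 to 34344645. H2-Eb1, the beta chain of I-E, rose by 0.88 and Cd74, the invariant chain, by 2.98, while H2-Aa (0.34) and H2-Ab1 (0.20) were not called. Of the 12 class II genes tested 3 were higher and 3 lower, and H2-Ea-ps, 1 of the 3 higher, had passed the filter through F1-P alone. H2-DMb1, a chain of the molecule that loads peptides onto class II, was at 22.6, 17.8 and 26.3 CPM in B6-Y and at 2.35, 2.10 and 2.87 CPM in F1-P, a fall of 2.74 (SE 0.20, adjusted p = 0.000129) with no overlap, and H2-Ob, a chain of the molecule that inhibits it, fell by 2.11 and H2-DMa by 1.29.

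In class I, H2-Q2 was at 0.527, 0.675 and 0.894 CPM in B6-Y and at 73.2, 86.9 and 67.9 CPM in F1-P, a rise of 5.50. H2-Q10 rose by 4.47, H2-Q1 by 4.23, H2-T3 by 2.79 and H2-T24 by 2.08, and H2-Q7 fell by 1.51 (159, 239 and 261 CPM against 70.0, 83.7 and 71.5 CPM). Of the 13 tested H2-Q, H2-T and H2-M genes 5 were higher and 1 lower. Of these 13, 3 passed the filter through F1-P alone (3 higher), and of the other 10, 2 were higher and 1 lower. Class I genes are near copies that vary between strains, and reads of both strains were aligned to the C57BL/6 reference, whose part in these values was not tested.

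Slamf9 and Slamf7 of the SLAM receptors rose by 3.35 and 2.82, and with their adaptors 4 of 11 were higher and none lower, 1 of the 4 having passed the filter through F1-P alone. Of 8 GIMAP GTPases, which support lymphocyte survival, 6 were higher (median 0.68), with Gimap4 at 2.27, but the number was 2 to 6 without a sample. Ccl5, a chemokine of NK and T cells, was at 4.15, 9.76 and 7.98 CPM in B6-Y and 45.2, 46.6 and 49.3 CPM in F1-P, a rise of 2.6. The chemokine receptor gene Cxcr3 rose by 1.88, and 5 of 18 chemokines and receptors were higher and 2 lower. The complement gene C2 rose by 3.00, while of 13 complement genes 3 were higher and 1 lower (median -0.21). Fcrla, an Fc receptor-like protein of B cells, rose by 3.06, the 1 call among 4 tested genes of the Fc gamma receptor list.

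Genes of cell division leaned lower, and those induced within minutes of a stimulus leaned higher, but both counts changed strongly when 1 sample was left out. All 20 mitosis genes had a log2 fold change below 0 (median -0.64), and 7 were called lower. Kif11, the spindle motor, was at 243, 185 and 187 CPM in B6-Y and 115, 79.3 and 92.2 CPM in F1-P, without overlap, and fell by 1.10. The number of called mitosis genes was 17 without F1-P replicate 1, 2 without F1-P replicate 2, 1 without F1-P replicate 3 and 1 without B6-Y replicate 1. Of 20 replication genes 1 was lower (median -0.48), and of 16 G1 genes 3 were lower and 1 higher, Ccnd2, at 197, 198 and 181 CPM in B6-Y and 327, 373 and 391 CPM in F1-P (0.91).

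Of 20 immediate early genes 7 were higher and none lower (median 0.76). Jun was at 372, 746 and 1121 CPM in B6-Y and at 2059, 3603 and 2616 CPM in F1-P, a rise of 1.99 (SE 0.42, adjusted p = 0.0157), and Fosb and Fos rose by 1.82 and 1.64. No immediate early gene was called without F1-P replicate 2, 1 was without F1-P replicate 3 and 2 were without B6-Y replicate 1. These genes also respond to handling of cells during isolation, whose part was not tested. Nfkbia, the inhibitor induced by NF-kB, rose by 1.90 and Socs2, a brake on cytokine signalling, by 1.92, while Rela, Nfkb1 and Myc were not called (-0.11, -0.14 and -0.47).

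Housekeeping genes were described by 4 lists. Of 78 cytosolic ribosomal protein genes 5 were lower and none higher, with 75 below 0 (median -0.29), and of 87 nuclear genes of the respiratory chain 1 was higher and 2 lower, Ndufs5 among them. In glycolysis 3 of 18 were lower, Gpi1 (0.96), Hk2 (0.79) and Pkm (0.70) by these falls. Gpi1 and Ndufs5 each have a processed pseudogene that was higher in F1-P, a kind of pair described below whose values are uncertain. In cholesterol synthesis Hsd17b7 alone of 21 was higher (0.92). Slc1a5, the glutamine transporter, was at 186, 247 and 217 CPM in B6-Y and 39.3, 47.2 and 45.6 CPM in F1-P, a fall of 2.27 with no overlap.

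The largest rises outside immunoglobulin genes were mostly of genes with almost no reads assigned to them in C57BL/6. Among the 8 largest were Gm13340, BC018473, Gm15772, Rps2-ps13, Rps3a3, Gm4076 and Gm10499, of which 6 are annotated as pseudogenes. Reads of a pseudogene can also match the gene it copies, so the values of these 6 are uncertain. Rps2-ps13 and its parent gene Rps2 together had 664, 593 and 974 CPM in B6-Y and 656, 434 and 504 CPM in F1-P. Gm13340, an unprocessed pseudogene on chromosome 2, was at 1.27, 0.743 and 1.17 CPM in B6-Y and at 344, 268 and 319 CPM in F1-P (log2 fold change 7.24, SE 0.17). BC018473, an antisense RNA on chromosome 11 at 116752167 to 116759373, was at 0.062, 0.101 and 0 CPM against 148, 127 and 129 CPM (7.0). The library kit did not mark strand, so reads of BC018473 and of genes on the other strand cannot be told apart. Nearby St6galnac2, a sialyltransferase, was at 3.25, 1.99 and 1.75 CPM in B6-Y and 104, 118 and 75.6 CPM in F1-P (4.91), and St6galnac1 and Cygb rose by 3.03 and 2.51.

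The 8 largest falls outside immunoglobulin genes were Chil3, Trim12a, Gm34680, Gm8113, Gm1966, 2610035D17Rik, Eps8l1 and Unc5a. Chil3, a chitinase-like protein of myeloid cells, was at 34.1, 328 and 27.6 CPM in B6-Y and at 0, 0 and 0.0486 CPM in F1-P, which is 1 read. It was highest in B6-Y replicate 2, the sample with most neutrophil marker RNA, and far above F1-P in all 3 (log2 fold change -6.09, SE 0.82). Trim12a, of a family of antiviral TRIM proteins, was at 47.4, 52.9 and 44.5 CPM in B6-Y and 0.0824, 0 and 0.0486 CPM in F1-P (-5.56, SE 0.17). In its cluster on chromosome 7, Trim30d fell by 3.16, Trim5 by 2.63, Trim30b by 1.45 and Trim34a by 1.09, and Trim34b rose by 2.32. Of 9 tested 5 were lower, but Trim12a and Trim5 had passed the filter through B6-Y alone and Trim34b through F1-P alone, and of the other 6, 3 were lower.

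Genes with almost no reads in 1 strain were counted without a test, as those with at most 0.1 CPM in all 3 samples of one group and at least 2 CPM in all 3 of the other. There were 43, of which 36 were on in F1-P (27 outside immunoglobulin genes) and 7 on in B6-Y (6 outside). Of the 27, 21 met the same rule in the older mice, and of the 6, 3 did. Pld5, a phospholipase D-like gene, was at 0, 0 and 0.0344 CPM in B6-Y and at 48.7, 37.2 and 34.4 CPM in F1-P. With 2527 reads against 1, the ratio was 3708 (95% interval from counting 665 to 146530). Gvin1, an interferon-inducible GTPase, had 366 reads in B6-Y and 0 in F1-P and was at least 83.1-fold lower. Outside immunoglobulin genes, the other genes with the highest levels on this rule in F1-P were Ifi202b, Gm42031, H2-Ea-ps, H2-Q1 and Gm8810. Those in B6-Y, also outside immunoglobulin genes, were Chil3, Trim12a, Gm8113, 5830416I19Rik and mt-Tc.

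Processed pseudogenes, copies of messenger RNAs pasted back into the genome, were often higher in F1-P. Of 267 tested, 100 were higher (37.5%) and 14 lower, beside 8.89% and 6.25% of all genes outside immunoglobulin genes. But 78 of the 267 had no B6-Y sample at 1 CPM and passed the filter through F1-P alone, and 75 of the 100 were among these. Of the other 189, 25 were higher (13.2%) and 14 lower, beside 932 higher (6.76%) and 884 lower of the 13788 genes outside immunoglobulin genes with a B6-Y sample at 1 CPM. For 98 of the 100 the closest parent gene, found by sequence, was tested as well. The median log2 fold change of the parents was -0.31, with a parent shared by several copies counted for each. That of the pseudogenes was 1.78, which had to be above 0, since these copies were chosen as higher. The 98 copies had 89 different parents, of which 73 were below 0 beside 54.7% of all genes tested, 13 were lower and 2 higher. But 22 of the higher copies had a ribosomal protein gene as parent, and 75 of 78 cytosolic ribosomal protein genes were below 0. The share over all genes is therefore not that of a like set of genes. The median identity of the copy to its parent was 97.7%.

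By their choice the 13 pairs with a lower parent differ in direction, and 5 of them are given here, chosen after their values were seen. Gm15772, on chromosome 5 at 3236431 to 3236868, was at 0.589, 0.439 and 0.688 CPM in B6-Y and at 158, 105 and 123 CPM in F1-P. Its parent Rpl26, a ribosomal protein gene on chromosome 11, was at 298, 255 and 471 CPM in B6-Y and 69.6, 47.4 and 49.7 CPM in F1-P. Neither overlapped between the groups, with log2 fold changes of 6.35 and -2.57, and 2 of the 435 coding bases of Rpl26 differ in the copy. Gm8210 was at 0.031, 0.0338 and 0 CPM in B6-Y and 13.8, 10.4 and 9.57 CPM in F1-P (3.57), and its parent Rpl29 fell by 1.97, with 3 of 480 coding bases different. The 75 bases, 1 read length, around a difference are shown for both pairs, coding bases 139 to 213 of Rpl26 and 34 to 108 of Rpl29 on GRCm38, with the differing base in capitals.
Rpl26: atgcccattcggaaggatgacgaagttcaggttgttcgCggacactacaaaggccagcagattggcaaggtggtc
Gm15772: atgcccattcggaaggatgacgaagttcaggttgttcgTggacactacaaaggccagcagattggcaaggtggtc
Rpl29: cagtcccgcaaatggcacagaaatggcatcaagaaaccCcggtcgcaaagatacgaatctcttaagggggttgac
Gm8210: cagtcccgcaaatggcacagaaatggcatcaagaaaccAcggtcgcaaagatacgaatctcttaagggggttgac

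The other pairs given are Atp6v0c-ps2 (3.79) and Atp6v0c (-0.65), Gm9825 (3.42) and Rnps1 (-1.22), and BC002163 (3.16) and Ndufs5 (-2.34). Gm1840 (3.19) and Gpi1 (-0.96) were another of the 13 pairs. Of the 5 ribosomal protein genes called lower, Rpl26 and Rpl29 are such parents, and the others were Rps4l (-1.41), Rpl35a (-0.94) and Rps18 (-0.86). Reads that match both copies within 1 or 2 bases can be assigned to either, so the values of these pairs are uncertain, and the part of strain differences from the reference in them was not tested.

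**Figure D3:**
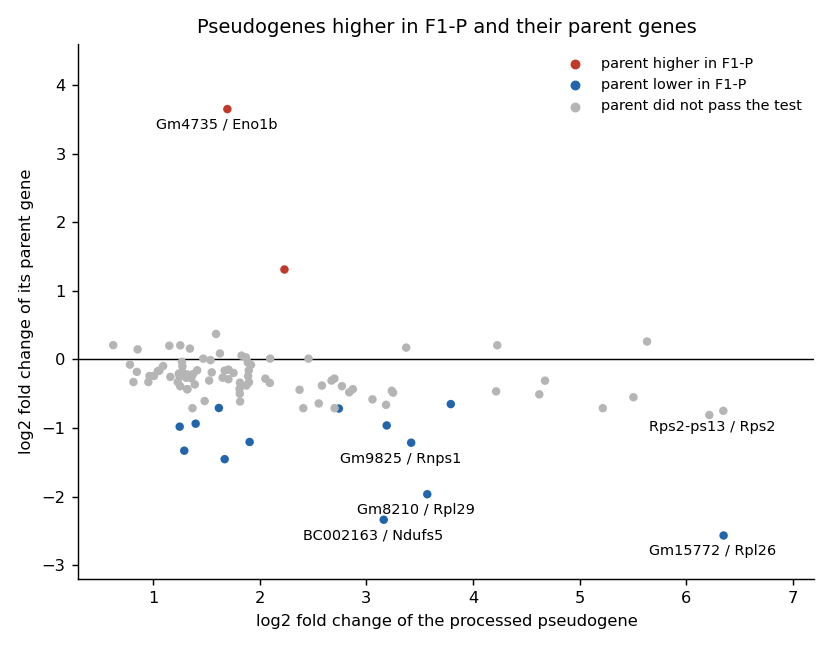
Log2 fold change (F1-P against B6-Y) of the 98 processed pseudogenes higher in F1-P (horizontal axis) and of the parent gene of each (vertical axis), coloured by the call of the parent. Most parents lie below the line at 0 (median -0.31), and Gm15772 with Rpl26 (6.35 and -2.57) is at the lower right.

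Called genes were found on all autosomes and X, and their share varied along the genome. Outside immunoglobulin genes chromosome 6 had the highest share, 165 of 764 tested genes (21.6%), and X the lowest of the autosomes and X, 45 of 444 (10.1%), beside 15.1% for all. In fixed windows of 2 Mb with at least 10 tested genes (516 windows, median 13.3% called), 15 exceeded 40% and 62 had no called gene. The highest was on chromosome 6 from 130 to 132 Mb, where 8 of 10 tested genes were called (80%), each a higher gene of the Klra family. Of these 8, 6 had passed the filter through F1-P alone. The window from 128 to 130 Mb, with 22 of 39 (56.4%), held further killer lectin-like receptors such as Klrd1 and Klrk1, and that from 40 to 42 Mb, with 9 of 18 (50%), the T cell receptor beta locus. In these, 7 of the 22 and 3 of the 9 called genes had passed through F1-P alone, and of the genes with a sample at 1 CPM in each group 15 of 31 and 6 of 15 were called.

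On chromosome 4 from 146 to 148 Mb, 11 of 19 genes were called (57.9%), 4 higher and 7 lower, with a cluster of zinc finger genes. Zfp984 was at 21.1, 20.5 and 27.1 CPM in B6-Y and 5.77, 5.31 and 6.56 CPM in F1-P (-1.79), Zfp991 fell by 2.02, and the long RNA Gm26880 rose by 4.78. The Trim window on chromosome 7 (12 of 26, 46.2%), the Ifi200 window on chromosome 1 (13 of 29, 44.8%) and the H2-T window on chromosome 17 (10 of 23, 43.5%) were also among the 15. Among the genes with a sample at 1 CPM in each group, 6 of 14 were called in the chromosome 4 window, 7 of 21 in the Trim window, 11 of 26 in the Ifi200 window and 4 of 17 in the H2-T window. The other windows with shares of this size were on chromosome 5 from 36 to 38 Mb (6 of 13, 46.2%), with Evc, Evc2 and Wfs1, on chromosome 11 from 16 to 18 Mb (5 of 11, 45.5%) and on chromosome 3 from 58 to 60 Mb (5 of 11, 45.5%), with P2ry12, P2ry13 and P2ry14, receptors for nucleotides. On chromosomes 5 and 3 every tested gene of the window had a sample at 1 CPM in each group. A called gene was followed on its chromosome by another called the same way in 17.8% of cases and by one called the other way in 6.22%, beside 15.1% of all pairs of neighbours whose second gene was called in either direction. By annotation, 14.3% of 12512 protein coding genes, 22.5% of 298 lincRNAs and 67.7% of 31 unprocessed pseudogenes were called, counts that include genes that passed the filter through 1 group alone.

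**Figure D4:**
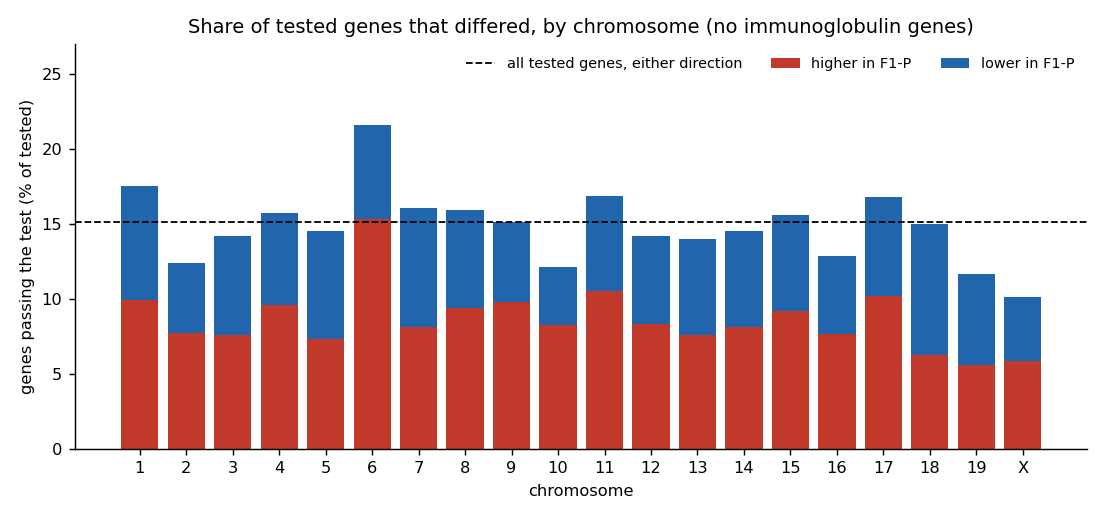
Share of tested genes outside immunoglobulin genes that were higher (lower part of each bar) or lower (upper part) in F1-P, in percent, for each chromosome from 1 to X; the dashed line is the share over all chromosomes in either direction. Chromosome 6 stands highest at 21.6% and X lowest at 10.1%, beside 15.1% overall.

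The comparison was then made in separate mice, F1-L against B6-O, which differ from the first by age and by overt disease at once, so that the 2 cannot be told apart. Among these, B6-O replicate 3 stood apart, with 4.76% of its reads in immunoglobulin genes against 0.503% and 0.301%, and with 1592 CPM over the monocyte markers against 586 and 448 CPM. F1-L replicate 1 had 2115 CPM over these markers, against 834 and 763 CPM. The same 2 samples were highest over the late neutrophil markers, at 11149 and 12933 CPM. There 1631 of the same 14380 genes were called (11.3%), 1104 higher (7.68%) and 527 lower (3.66%). Both comparisons called 1252 genes in the same direction, 926 higher and 326 lower, which is 53.7% of the calls at 12 weeks and 76.8% of those at 28 to 36 weeks. Of the 2331 genes, 2269 (97.3%) had the same sign, and 1 was called in opposite directions. In the test of the difference between the ages 0 of 14380 genes passed at an adjusted p of at most 0.05 with limma, and 530 (3.69%) had an unadjusted p below 0.05. Without B6-O replicate 3, 2355 genes were called in the older mice and 1536 in both comparisons. Without another B6-O sample or an F1-L sample the older mice gave 888 to 1002 genes and both comparisons 753 to 890, with the fewest without B6-O replicate 1.

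Many of the leading genes had values of like size in the older mice. Ly6a was higher by 2.68 in F1-L, Jchain by 4.51, Ncr1 by 3.72, Ifi202b by 4.74, Gm15772 by 6.48 and BC018473 by 7.42, and Trim12a was lower by 5.37, H2-DMb1 by 2.19 and Meis1 by 0.96, with calls for each. The type I interferon list stood closer to 0. Its median was -0.84 at 12 weeks and -0.16 in the older mice, where 1 of 31 genes was higher, Zbp1, and 1 lower, Rtp4. Oas3 was at 33.9, 45.5 and 25.4 CPM in B6-O and 40.7, 28.7 and 26.5 CPM in F1-L, where the groups overlapped (log2 fold change -0.11). Mx1 was at 8.93, 8.02 and 12.9 CPM in B6-O and at 12.9, 8.15 and 10.2 CPM in F1-L (0.06). The summed level of the list was 1209, 1281 and 1352 CPM in B6-O, under every B6-Y sample, and 1383, 1161 and 1284 CPM in F1-L, which overlapped with F1-P, and these levels were not tested between the ages.

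In the test of the difference between the ages, 15 of the 31 had an unadjusted p below 0.05 (11 to 19 without a sample, 19 without B6-O replicate 3), all with a higher log2 fold change in the older mice, but none passed the adjustment over all genes (Oas3 1.61, adjusted p = 0.81). Of the 2 monocyte markers called lower at 12 weeks, Apoe was called lower in the older mice too (-2.05), and of the 6 plasmacytoid dendritic cell markers none was. Monocyte markers had a median of -0.70 at 12 weeks and 1.47 in the older mice, with 11 of 16 at an unadjusted p below 0.05, beside the high level of these markers in B6-O replicate 3 and F1-L replicate 1, whose part was not tested. Siglech ranged from 9.73 to 26.8 CPM in B6-O and from 7.75 to 49.99 CPM in F1-L. Cebpa, lower at 12 weeks, had a log2 fold change of 0.70 in the older mice (not called, difference 1.69, adjusted p = 0.81).

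**Figure D5:**
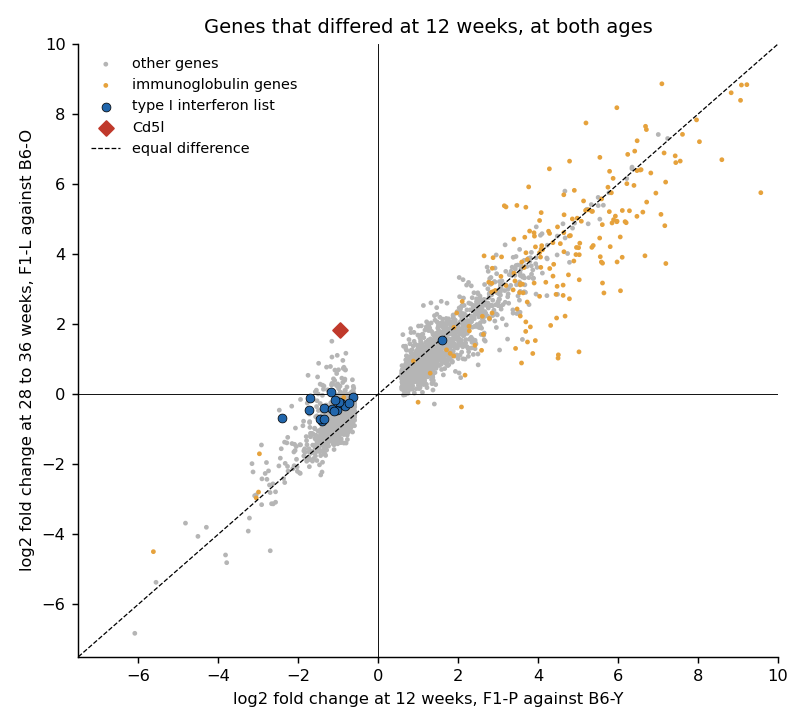
Log2 fold change of each gene called at 12 weeks, F1-P against B6-Y (horizontal axis), and of the same gene in F1-L against B6-O (vertical axis); the dashed line marks equal values, and called genes of the type I interferon list, immunoglobulin genes and Cd5l are coloured. Most genes lie near the line, 97.3% with the same sign, and the interferon genes other than Zbp1 lie between it and 0 on the vertical axis, with Mx1 just above 0.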

How the data were processed

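RNA of sorted LSK was sequenced by the authors (TruSeq kit v2, single-end reads of 75 bases, NextSeq), aligned with STAR 2.6 to mm10 (GRCm38), the C57BL/6 reference, and counted with HTSeq. The deposited values are a signal, gene counts the authors scaled by size factors. Since 100% of values were whole multiples of 1 read (tolerance 0.01), whole reads and depth could be recovered. The unit had been taken as plain CPM when the tests were chosen, and the same tests were kept. Each library held at least 23772252 reads, which gave 95% Wilson intervals for a share of reads of at most 0.0387 points from counting alone.

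Genes with at least 1 CPM in at least 3 of 6 samples were tested in limma 3.58.1 (R 4.3.3; lmFit, eBayes with trend) on log2(CPM + 1), two-sided, with Benjamini-Hochberg adjustment over 14380 genes. A gene was called at an adjusted p of 0.05 or less where the fold change exceeded 1.5. Every adjusted p in the text is from limma. Fold changes on this scale understate those of low genes. The same fit was made for F1-L against B6-O, and the difference between the ages was tested as an interaction over 12 samples. In simulated data for F1-P against B6-Y (14380 genes), 172 of 193 genes changed 4-fold and 33 of 196 changed 2-fold were called. Unchanged genes called numbered 18 in the 4-fold run and 2 in the 2-fold run.

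Of 19780 genes 19770 matched GENCODE M21. Parents of pseudogenes were found with blastn 2.17.0 (e-value 1e-20). Alternatives were 2 pseudocounts, 2 filters, 2 scalings, thinned reads, edgeR 4.0.16 (quasi-likelihood and likelihood ratio) and DESeq2 1.42.0 on recovered reads, weights, robust eBayes, a fit of all 12 samples, no minimum fold change, a table without immunoglobulin genes, a replicate block and leaving out each sample. No replicate pair was a duplicate (chi-square per degree of freedom 26.0 or more).

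The comparison, 42 gene lists and tests were chosen with earlier results of these data known. Genes were named by rule: the 8 largest rises and falls, in each list the called member with the largest rise and fall, genes on in 1 strain, members of the 4 densest windows, and Kit, Ly6a, Flt3, Cd34 and known strain variants. Other named genes were added for their role after values were seen. The common myeloid progenitor samples were not used here. Values of some genes are not reported here.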

Additional observations from a re-analysis of the deposited data

Results flagged for a closer look

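Cd5l, a secreted scavenger protein of macrophages, was the 1 gene called in opposite directions at the 2 ages. It was at 1.02, 3.04 and 1.51 CPM in B6-Y and at 0.289, 0.467 and 0.486 CPM in F1-P, a log2 fold change of -0.96 (limma adjusted p = 0.0411). No F1-P sample reached 1 CPM, so that it passed the filter through B6-Y alone, and the call was lost for 5 of the 6 samples left out in turn. In the older mice it was at 0.249, 0.505 and 0.435 CPM in B6-O and at 6.33, 3.50 and 2.78 CPM in F1-L (1.84, limma adjusted p = 0.00588). The difference between the ages was 2.80 on the log2 scale, with an unadjusted p of 1.49e-05 and an adjusted p of 0.214 from limma, so that it did not pass over all genes.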

How the results depend on the processing

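The total of 2331 called genes lay between 1579 and 2816 under the other settings that kept all samples, with 2280 by edgeR quasi-likelihood, 2750 by its likelihood ratio and 2816 by DESeq2, and was 3822 (2175 higher, 1647 lower) with array quality weights. The number of higher genes was 937 with a filter at a mean of 5 CPM. Leaving out 1 sample gave 1346 to 2704 called genes, 945 to 1670 higher and 401 to 1034 lower. Genes called in both ages numbered 753 to 1536 without 1 of the 12 samples. Genes on in 1 strain numbered 132 at 0.5 against 2 CPM and 21 at 0.1 against 5 CPM, instead of 43. With the replicate number as a block 2787 genes were called (1671 higher, 1116 lower), and 1145 in both ages. Correlations of deviations between same-numbered samples were 0.326, 0.322 and 0.0676, so the numbers were not taken as pairs; of the 6 samples, replicate 3 of each group correlated better with another number. Of 125 named genes called, 95 were called under every alternative that tested them (21 or 22 of 22) and none changed sign. No gene passed the test of the difference between the ages under the 4 other settings tried, with 513 to 689 at an unadjusted p below 0.05. Without 1 of the 12 samples 0 to 1 gene passed (Lbp without F1-P replicate 3, Ighv3-3 without F1-L replicate 1, Mpeg1 without F1-L replicate 2), with 313 to 1271 at an unadjusted p below 0.05. Depth limits the genes near 1 CPM, and of 196 genes changed 2-fold in simulated data limma called 33, edgeR quasi-likelihood 31, its likelihood ratio 104 and DESeq2 120, with 2, 2, 29 and 39 unchanged genes called. In the run with genes changed 4-fold the same methods called 18, 18, 67 and 77 unchanged genes.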
